A study of Mus musculus with 12 samples.

Results

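B lymphocyte genes were followed through RNA-seq of mouse mammary tissue in which normal glands were compared with tumors, and control tumors with tumors of mice given a p300 inhibitor. The 9 genes were Ms4a1, Cd79a, Cd79b, Fcer2a, Cr2, Pax5, Cd22, Blk and Fcrla. Their rows were taken by name from each file and summed where a name was repeated, which gave 9 of the 23704 gene names in the Normal and Tumor files and 9 of the 23691 names in the DMSO and C646 files. Some of the genes were chosen by their large fall in FPKM from Normal to Tumor, so that comparison is given for them as a description with no test.

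The samples formed 4 groups with 3 replicates each, all from 12-week-old female mice on the FVB background. Normal was the mammary gland of FVB wild type mice without treatment, and each replicate mixed abdominal and inguinal glands of 3 mice. Tumor was mammary tumor of untreated MMTV-PyVT mice, in which the MMTV promoter drives the polyoma virus middle T oncogene in mammary epithelium, taken from the thoracic gland of 1 mouse per replicate. DMSO and C646 were tumors of MMTV-PyVT mice injected with the solvent DMSO or with C646, an inhibitor of the acetyltransferase p300. The labels give 1 mg/kg for both of these groups, and each replicate was the biggest tumor of 1 mouse. All MMTV-PyVT mice were heterozygous. The tissue, the position of the gland and how many mice made up a replicate changed together between Normal and Tumor, and their parts cannot be told apart.

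B lymphocytes are the antibody-making cells of the immune system. A mature B cell carries membrane immunoglobulin, which binds antigen, together with a signalling pair made of the products of Cd79a and Cd79b, and this complex is the B cell receptor. Coreceptors set how strongly the receptor signals, and the transcription factor Pax5 keeps the cells in the B lineage. Most B cells of the body rest in follicles of lymph nodes and spleen beside T cell zones, and the inguinal mammary fat pad of the mouse contains a lymph node. Immunoglobulin heavy and light chain genes were not analysed here.

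Values were FPKM, fragment counts divided by transcript length and by the mapped reads of the library. The FPKM of all named genes summed to between 525515 and 753124 in the Normal and Tumor libraries and to between 526855 and 638606 in the DMSO and C646 libraries, and between 11853 and 12792 names reached 1 FPKM. The number of mapped reads per library was not in the files. Of 6809 names with a median of at least 10 FPKM in the Normal and Tumor libraries, 29 were listed at 0 in some library, as were 8 of 6998 in the DMSO and C646 libraries. A value of 0 is therefore written as listed at 0. The 2 experiments used different gene tables and were not tested against each other.

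The promoters of 3 of the genes are shown as examples. All 9 genes share a large difference between Normal and Tumor, so that difference does not single out these 3. RefSeq (GRCm38.p6) held promoters for 6 of the 9 genes, 8 promoters in all, and Ms4a1, Cd79b and Blk were not in the table. The 250 bases before each RefSeq start were searched on both strands for GAGGAA, the core of the site of the myeloid and B cell factor PU.1, for CCCNNGGG, the core of the site of the B lineage factor EBF1, for the octamer ATGCAAAT and for the E-box CANNTG. Capitals mark GAGGAA or its reverse complement, and no CCCNNGGG or octamer lies in these runs. The 3 shown include both genes with a match to GAGGAA, and the promoters of Cd22, Pax5 and Fcer2a are not shown. Fcrla (chr1:170927584-170927833, minus strand) and Cr2 (chr1:195176720-195176969, minus strand) are shown in full, and Cd79a (chr7:24897247-24897380, plus strand) up to the start of the gene in GENCODE vM21, which lies 116 bases before the RefSeq start. Each run reads 5′ to 3′ along the strand of the gene.
Cd79a: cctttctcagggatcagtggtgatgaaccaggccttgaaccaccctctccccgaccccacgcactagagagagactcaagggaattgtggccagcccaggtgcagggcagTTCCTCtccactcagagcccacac
Fcrla: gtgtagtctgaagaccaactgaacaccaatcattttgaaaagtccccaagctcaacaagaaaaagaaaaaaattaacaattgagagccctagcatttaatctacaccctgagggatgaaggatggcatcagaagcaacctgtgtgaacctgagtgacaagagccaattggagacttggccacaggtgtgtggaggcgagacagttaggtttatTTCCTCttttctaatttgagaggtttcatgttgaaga
Cr2: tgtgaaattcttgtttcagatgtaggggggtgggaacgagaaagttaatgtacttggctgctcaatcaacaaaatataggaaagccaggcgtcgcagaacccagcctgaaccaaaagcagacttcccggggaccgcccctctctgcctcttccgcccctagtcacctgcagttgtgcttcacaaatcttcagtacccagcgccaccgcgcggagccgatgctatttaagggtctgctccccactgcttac

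The PU.1 core lay 140 bases before the RefSeq start of Cd79a and 37 bases before that of Fcrla, and Cr2 held none in this window. It was found in 2 of the 8 promoters of these genes and in 23.3% of 32851 RefSeq promoters of the same length. The EBF1 core was found in 1 of the 8 promoters, 48 bases before the start of Cd22, against 11.8% of all promoters. The octamer was in 0 of 8, against 1.60%. An E-box was in 6 of 8 promoters, against 66.2% of all, and it overlapped no PU.1 or EBF1 core in them. Matches of these letters are descriptions of sequence and not measured binding.

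In Normal, the receptor subunits were the most abundant of the 9 genes. Cd79a (chr7:24897381-24902197, GRCm38), which encodes the Ig-alpha subunit, had 82.5, 112 and 86.9 FPKM in Normal replicates 1, 2 and 3. Cd79b (chr11:106311341-106314762), which encodes Ig-beta, had 83.9, 108 and 81.2 FPKM. The ranges of the subunits overlapped, and together they made up 60.1%, 62.9% and 59.4% of the summed FPKM of the 9 genes in the 3 libraries.

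Surface receptors of mature B cells followed. Fcer2a (chr8:3681737-3694175), the low-affinity IgE receptor CD23 of follicular B cells, had 28.7, 37.9 and 33.2 FPKM in the Normal replicates. Ms4a1 (chr19:11249675-11266241), which encodes CD20, had 24.4, 29.7 and 26.7 FPKM, and its range overlapped that of Fcer2a. Cd22 (chr7:30865402-30880342), a sialic acid-binding lectin that dampens receptor signals, had 21.4, 22.5 and 20.6 FPKM and lay below Ms4a1 in range. Cr2 (chr1:195136811-195176716), the complement receptor CD21 that lowers the threshold of activation, had 9.79, 9.60 and 10.2 FPKM. CD21 and CD23 are also surface marks used to divide mature B cells into follicular and marginal zone cells.

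Genes of signalling and lineage inside the cell were at similar or lower levels per length. Blk (chr14:63372836-63417037), a Src family kinase of B cells, had 9.83, 12.1 and 12.0 FPKM, and its range overlapped that of Cr2. Fcrla (chr1:170917576-170927583), an Fc receptor-like protein that stays inside B cells, had 8.76, 9.19 and 7.63 FPKM. Pax5 (chr4:44524757-44710487) had 7.82, 8.88 and 4.64 FPKM. In the order of the Normal means the ranges of neighbours were separate between Cd79b and Fcer2a, between Ms4a1 and Cd22, between Cd22 and Blk and between Cr2 and Fcrla, and they overlapped for the other neighbours. The coefficient of variation over the 3 Normal libraries ran from 3.12% for Cr2 and 4.41% for Cd22 to 17.0% for Cd79a and 31.0% for Pax5.

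**Figure D1:**
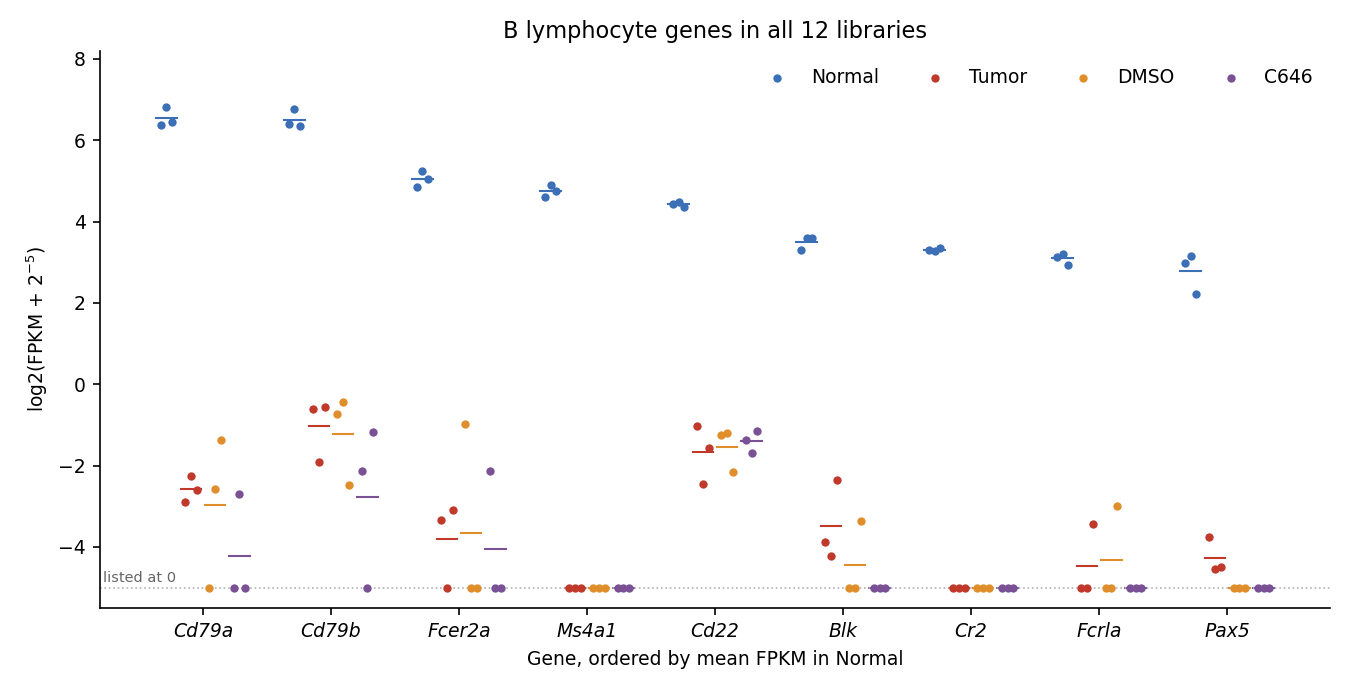
Level of each B lymphocyte gene in the 12 libraries, as log2(FPKM + 2^-5) on the vertical axis, with 1 point per library, a line at each group mean and the dotted line at the value of a gene listed at 0. Every Normal point lies above 2 on this scale and every tumor point lies below 0, with Ms4a1 and Cr2 on the dotted line in all 9 tumors.

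Each of the 9 genes was lower in every Tumor library than in every Normal library. Over all 13031 genes tested, 35.8% had every Tumor library below every Normal library, and 31.7% were called lower and 28.8% higher in Tumor by limma. Since the fall in Tumor was used to choose some of the genes, nothing was read from their count against these shares. On the log2(FPKM + 2^-5) scale the difference between Tumor and Normal ran from -9.75 for Ms4a1 to -6.11 for Cd22, with a median of -7.58 over the 9 genes, and the median over all genes tested was -0.02. With a pseudocount of 1 the median over the 9 genes was -4.11. The 9 genes passed the filter of 1 FPKM in 3 libraries through Normal only, so the genes that passed had to differ. In these bulk samples fewer B cells and less RNA per B cell cannot be told apart.

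The level left in Tumor differed from gene to gene. Ms4a1 and Cr2 were listed at 0 in all 3 Tumor libraries. Cd22 kept the largest share, with 0.460, 0.152 and 0.307 FPKM in Tumor replicates 1, 2 and 3, and its Tumor mean was 1.43% of the Normal mean, or 70.1-fold lower. Cd79b had 0.626, 0.232 and 0.650 FPKM, a mean 181-fold lower than in Normal. For both genes Tumor replicate 2 was the lowest of the 3 libraries.

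The other receptor subunit was at a lower level. Cd79a had 0.102, 0.177 and 0.134 FPKM, below Cd79b in each library, and its mean was 681-fold lower than in Normal. Expressed as a share of Normal, 0.147% of Cd79a was left against 0.551% of Cd79b. In the tumors of injected mice the order varied, with Cd79a above Cd79b in DMSO replicate 3 and C646 replicate 2. The difference between their shares was not tested, since both values come from the comparison that chose the genes.

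The remaining genes were close to 0 in Tumor. Fcer2a had 0.0671 and 0.0864 FPKM in replicates 1 and 3 and was listed at 0 in replicate 2. Fcrla had 0.0603 FPKM in replicate 3 and was listed at 0 in the others. Pax5 had 0.0431, 0.0117 and 0.0128 FPKM, a mean 316-fold lower than in Normal, and Blk had 0.0363, 0.0224 and 0.164 FPKM, a mean 153-fold lower. The folds of Pax5 and Blk rest on values close to 0 that were summed over 2 rows, so their size is uncertain. The highest Tumor value among these 4 genes was 0.164 FPKM. The sum of the 9 genes fell from 277, 350 and 283 FPKM in the Normal libraries to 1.33, 0.595 and 1.41 FPKM in the Tumor libraries. Cd22 and Cd79b together made up 38.0%, 37.4% and 36.0% of that sum in Normal and 81.4%, 64.5% and 67.7% in Tumor.

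Relative depth of the Tumor libraries was estimated from low values. From genes under 0.1 FPKM, Tumor replicate 2 was 1.65 times and Tumor replicate 3 was 1.53 times as deep as Tumor replicate 1, read from 431 and 428 genes of which 22.0% and 45.6% had a ratio at the peak. The name Blk stood on 2 rows of the Normal and Tumor files. The first of these had 0.0363, 0.0224 and 0.0239 FPKM in the Tumor libraries, and 0.0363, 0.0370 and 0.0365 after scaling to the depth of replicate 1. The second row was listed at 0 in replicates 1 and 2 and had 0.140 FPKM in replicate 3.

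Pax5 also stood on 2 rows of the Normal and Tumor files. The first had 2.88, 3.36 and 0.0036 FPKM in the Normal replicates, and the second had 4.94, 5.52 and 4.63 FPKM. The low total of Pax5 in Normal replicate 3 therefore lay on the first row alone, while the second row differed little between the 3 libraries. In Tumor the first row was above 0 in replicate 1 only, at 0.0431 FPKM. The second row was above 0 in replicates 2 and 3 only, at 0.0117 and 0.0128 FPKM. What divides the rows is not given in the files, and the DMSO and C646 files held a single row for Pax5 and for Blk.

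Other genes of B cells were examined through 4 lists, of B cell receptor signalling, inhibitory receptors and coreceptors, B lineage transcription factors and the surface and survival of mature B cells. Of their 55 genes, 54 were tested in Tumor against Normal, and 47 were lower, 2 were higher and 5 were not called at an adjusted p under 0.05 by limma. Of the 54 genes, 23 reached 1 FPKM in no Tumor library and so passed the filter through Normal only, like the 9 genes, which means that they had to differ. Of the other 31 genes, a split chosen after seeing the data, 24 were lower, 2 were higher and 5 were not called, with a median log2 difference of -1.69. Among the 24, Btk, Prkcb, Tnfrsf13b, Cd40 and Cxcr5 had a lowest Tumor library of 0.849, 0.918, 0.819, 0.357 and 0.108 FPKM. These genes, too, needed Normal libraries to pass the filter, so their fall was partly set by it. Of all 12123 genes tested that reached 1 FPKM in some Tumor library, 26.7% were lower and the median was 0.07. Without Normal replicate 1, 2 or 3, only 31 genes of the lists passed the filter and 23, 24 and 23 were lower. Genes that passed through Normal only are given below by their levels, without a p.

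Within B cell receptor signalling, 4 of 16 tested genes passed through Normal only, and of the other 12 genes 7 were lower, 2 were higher and 3 were not called. Btk and Prkcb, among the 7, had a Tumor library under 1 FPKM and needed Normal libraries to pass the filter. Pik3cd, the PI3-kinase catalytic subunit of leukocytes, was among the 4, with 21.7 ± 2.49 FPKM (SD, n = 3) in Normal and 0.40 ± 0.139 in Tumor. Syk, the kinase that docks on Cd79a and Cd79b, fell by 3.72 on the log2 scale (SE 0.161, adjusted p = 1.33e-05) from 17.3 to 1.28 FPKM. Cd81, a tetraspanin made by many cell types, rose by 1.23 (adjusted p = 0.000325) from 185 to 435 FPKM. Plcg2, a phospholipase downstream of Syk, rose by 1.56 (adjusted p = 0.00331) from 14.5 ± 2.56 to 44.9 ± 20.0 FPKM. The adaptor Blnk had 15.3 FPKM in Normal and 18.4 in Tumor, and the kinase Lyn had 20.2 and 22.0, and neither was called. The chain from the receptor to its first kinases and adaptors thus held genes that fell, genes that rose and genes that did not pass the test.

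Of 10 tested genes of inhibitory receptors and coreceptors, 4 passed through Normal only, and the other 6 were lower, with a median of -1.67. Fcrl1, an Fc receptor-like protein of B cells, had 14.5 FPKM in Normal and 0.0333 in Tumor, and Siglecg, a lectin related to CD22, had 12.0 and 0.0353, both among the 4. Ptpn6, which encodes the phosphatase SHP-1 recruited by CD22 and found in all blood cells, fell by 1.68 (adjusted p = 0.000214) from 80.8 to 25.5 FPKM. Cd72 fell by 1.66 (adjusted p = 0.00262). The row of Pirb joined it with several related Pira genes, so its fall of 1.79 cannot be assigned to 1 gene.

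Of 13 B lineage transcription factors, 7 passed through Normal only, and of the other 6 genes 4 were lower and 2 were not called, with a median of -1.11. Among the 7, Spib, an Ets factor related to PU.1, had 25.3 FPKM in Normal and 0.125 in Tumor, Ikzf3, the Ikaros family member Aiolos, had 12.1 and 0.0617, and Ebf1, which acts with Pax5 in early B cells, had 14.7 and 0.374. Irf8, used in B cells and in myeloid cells, fell by 3.28 (adjusted p = 2.32e-05) from 38.8 to 4.03 FPKM. Spi1, which encodes PU.1, fell by 1.69 (adjusted p = 0.000868) from 30.5 to 9.63 FPKM. Tcf3, which encodes the broadly made E2A proteins, had 29.9 FPKM in Normal and 31.3 in Tumor, and Bcl11a had 5.28 and 4.30, and neither was called. Without Normal replicate 1, 2 or 3 the number of lower factors was 3, 4 and 3.

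Of 15 tested genes of mature B cell surface and survival, 8 passed through Normal only, and the other 7 were lower, with a median of -3.44. Of the 7, Tnfrsf13b, Cd40 and Cxcr5 had a Tumor library under 1 FPKM and needed Normal libraries to pass the filter. The median is the value of Cxcr5. Cd37, a tetraspanin of B cells, fell by 5.81 (adjusted p = 1.46e-05) from 113 to 2.02 FPKM. Ly86, a partner of the Toll-like receptor homologue CD180, fell by 2.03 (adjusted p = 0.000163) from 19.6 to 4.84 FPKM. Among the 8, Vpreb3 had 8.60 FPKM in Normal and was listed at 0 in all 3 Tumor libraries. Fcmr, the IgM Fc receptor, had 38.0 FPKM in Normal and 0.474 in Tumor, Bank1, a scaffold of receptor signalling, had 10.9 and 0.104, and Tnfrsf13c, the receptor of the survival factor BAFF, had 15.1 and 0.327.

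Other stages of the B lineage gave mixed counts. Of 11 genes of B cell precursors and the germinal centre, 4 were tested. Gcsam passed through Normal only, and of the other 3 genes Cd93 fell by 1.32 on the log2 scale (adjusted p = 0.00323), S1pr2 was higher by 1.95 (adjusted p = 0.000128) and Bcl6 was not called. Of 8 tested plasma cell genes, 4 passed through Normal only, and of the other 4 genes 1 was lower and 3 were higher. Without Normal replicate 1, 2 or 3, too, 1 gene was lower and 3 were higher. The filter then passed only genes that reached 1 FPKM in a Tumor library, as in the split, so this is no independent check. The lower one was Jchain, the joining chain of IgM and IgA, with 14.5 FPKM in Normal and 0.705 to 2.30 FPKM in Tumor. It had a Tumor library under 1 FPKM and needed Normal libraries to pass the filter, so its p is not given. Mzb1, among the first 4, had 20.6 ± 11.2 FPKM in Normal and 0.546 ± 0.236 in Tumor. Derl3 rose by 3.79 (adjusted p = 0.00135), Fkbp11 by 2.95 (adjusted p = 7.29e-05) and Sdc1, which encodes the syndecan CD138 also made by epithelium, by 1.10 (adjusted p = 0.00469). Derl3 and Fkbp11 encode proteins of the endoplasmic reticulum of secretory cells.

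**Figure D2:**
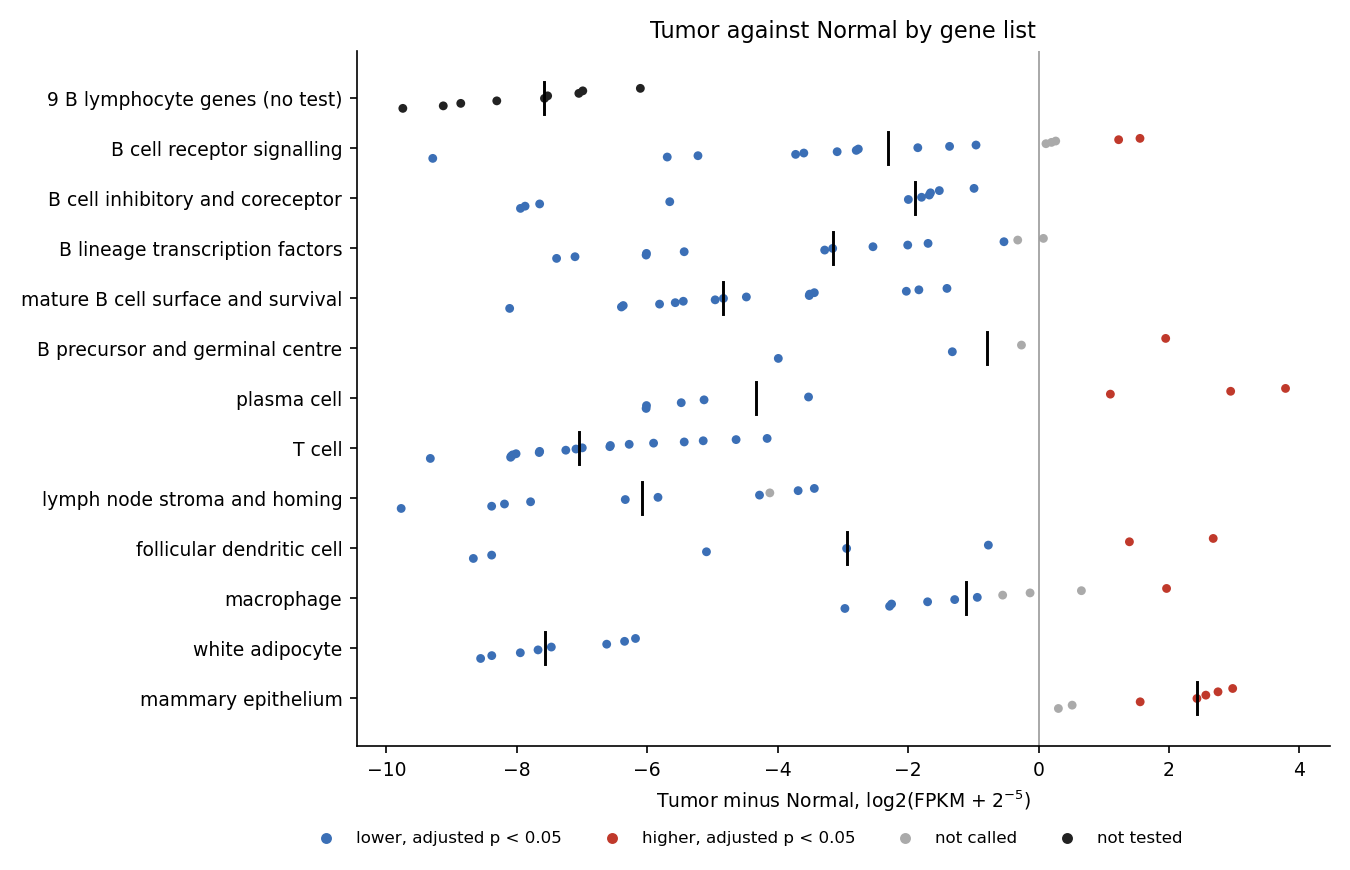
Difference between Tumor and Normal in log2(FPKM + 2^-5) on the horizontal axis for each tested gene of 13 gene lists, with a black bar at the median of each list. Colors mark the limma calls, and the 9 B lymphocyte genes carry none. Genes that passed the filter through Normal only are included in the points and the medians. They had to differ, so their color is not read as a test result. The B lymphocyte genes lie between -9.75 and -6.11 and the T cell genes between -9.33 and -4.16, while 5 of 7 mammary epithelium genes were called higher.

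Markers of other cells moved together with the B lymphocyte genes. Of 18 T cell genes, 14 passed through Normal only and the other 4 were lower. Without any 1 Normal replicate 4 were lower as well, but the filter then passed only genes at 1 FPKM in a Tumor library. That count is thus no independent check. Of these 4, Cd3g (0.183 to 1.18 FPKM in Tumor) and Cd247 (0.810 to 2.68 FPKM) also needed Normal libraries to pass the filter. The summed level of the list was 563 to 764 FPKM in Normal and 9.65 to 11.9 FPKM in Tumor, with no gene of the list at 0 in all 3 Tumor libraries. Tcf7, a transcription factor of T cells, fell by 4.16 (adjusted p = 0.000114) from 68.1 to 4.20 FPKM, and Cd3e, a subunit of the T cell receptor complex that passed through Normal only, had 49.7 and 0.151 FPKM. Of 10 tested genes of lymph node stroma and homing, 6 passed through Normal only, and of the other 4 genes 3 were lower. The count was 3 without any 1 Normal replicate as well, under the same limit of the filter. Of these 3, Lta (0.128 to 1.06 FPKM in Tumor) and Cxcr5 (0.108 to 1.73 FPKM) also needed Normal libraries to pass the filter. Ltb, a lymphotoxin subunit, fell by 5.84 (adjusted p = 9.54e-06) from 185 to 3.24 FPKM. Cxcl13, the chemokine that draws B cells into follicles, had 71.2 FPKM in Normal and 0.348 in Tumor, and Ccl19, a chemokine of the T cell zone, had 7.25 FPKM in Normal and was listed at 0 in all 9 tumors. The part of lymph node tissue in the difference of the B lymphocyte genes was not tested.

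Glycam1, made by high endothelial venules of lymph nodes and by milk-secreting epithelium, was the lymph node gene that was not called (adjusted p = 0.135). It was at 908 to 1294 FPKM in Normal and at 2.71 to 2570 FPKM in Tumor, and it set the summed level of that list in Tumor, 7.59 to 2574 FPKM against 1242 to 1749 FPKM in Normal. Of 7 tested genes of follicular dendritic cells, the stromal cells on which B cells meet antigen, 2 passed through Normal only, and of the other 5 genes 3 were lower and 2 were higher, with sums of 1018 to 1223 FPKM in Normal and 1090 to 1848 FPKM in Tumor. Of the 3 lower ones, Bst1 (0.263 to 2.01 FPKM in Tumor) and the joined row of Serpina1a (0.548 to 1.17 FPKM) also needed Normal libraries to pass the filter. The higher ones, Mfge8 and Sox9, are also made by mammary epithelium.

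All 8 white adipocyte genes were lower, with a median of -7.57 and sums of 26049 to 32748 FPKM in Normal and 102 to 2480 FPKM in Tumor. Of these, Plin1, Lep, Cidec, Retn and Pparg had a Tumor library under 1 FPKM and needed Normal libraries to pass the filter. Of 10 macrophage genes, 6 were lower and Cd14 was higher, with a median of -1.11 and sums of 1063 to 1234 FPKM against 530 to 836 FPKM. Of 7 mammary epithelium genes 5 were higher and 0 lower, with sums of 455 to 955 FPKM against 2426 to 3412 FPKM. The summed levels of the adipocyte, macrophage, T cell and epithelium lists did not overlap between the groups. The part of these cell types in the fall of the B lymphocyte genes was not tested.

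The Normal libraries also differed among themselves. The FPKM of all named genes summed to 525515, 611249 and 544992 in Normal replicates 1, 2 and 3, so the total was highest in replicate 2 as well. The share of all genes that were highest in replicate 2 was not computed, and the percentages below are not corrected for this total. As a percentage of the mean of the 3 Normal libraries, the median of the 9 B lymphocyte genes was 92.0% in replicate 1, 110% in replicate 2 and 95.8% in replicate 3, and 8 of the 9 genes were highest in replicate 2, with Cr2 highest in replicate 3. The T cell genes had medians of 87.9%, 122% and 90.4%, with 16 of 18 highest in replicate 2. The adipocyte genes had 88.2%, 111% and 99.4%, with 7 of 8 highest in replicate 2. The mammary epithelium genes had 142%, 68.1% and 84.0%, and all 7 were highest in replicate 1. The macrophage genes had 101%, 108% and 91.5%. The epithelial genes thus stood above the mean in replicate 1, where the B cell, T cell and adipocyte medians lay below it, and below the mean in replicate 2, where those medians and that of the macrophage genes lay above it.

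**Figure D3:**
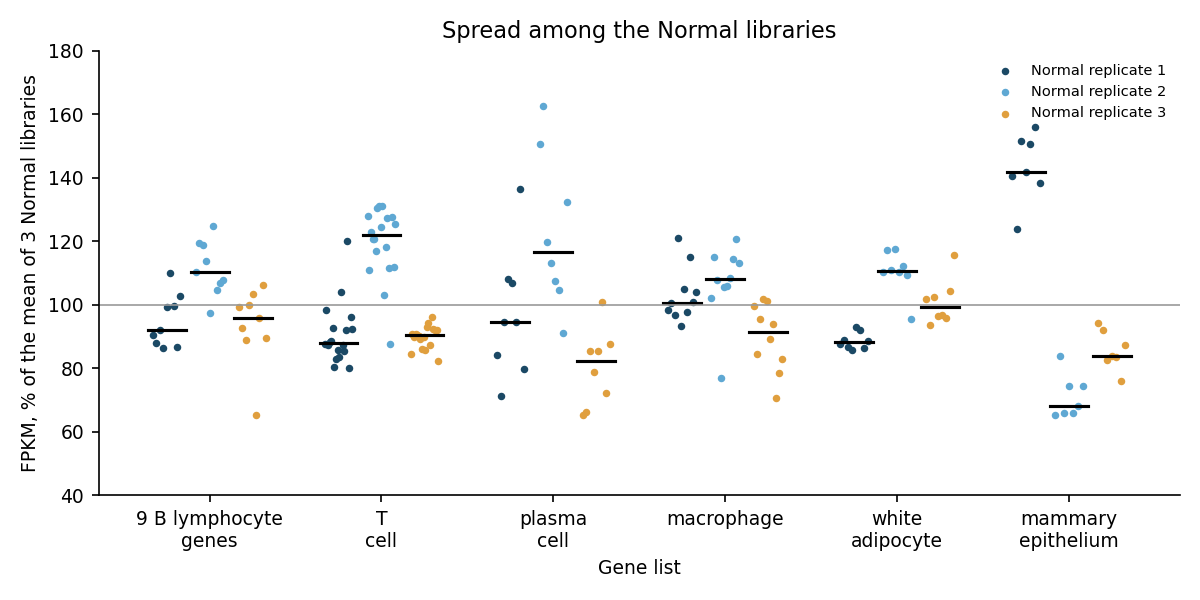
FPKM of each gene as a percentage of its mean over the 3 Normal libraries, by gene list and replicate, with 1 point per gene and a line at the median. Replicate 2 has the highest median for the B lymphocyte genes (110%) and the T cell genes (122%), and replicate 1 for the mammary epithelium genes (142%).

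Tumors of injected mice also had each B lymphocyte gene under 1 FPKM, and their values are given beside those of the untreated tumors without a test. The sum of the 9 genes was 1.44, 1.25 and 0.855 FPKM in DMSO replicates 1, 2 and 3 and 0.753, 0.399 and 0.836 FPKM in C646 replicates 1, 2 and 3. Over the 9 tumors of the 3 groups, Cd22 was above 0 in 9, Cd79b in 8, Cd79a in 6, Fcer2a and Blk in 4 each, Pax5 in 3, Fcrla in 2, and Ms4a1 and Cr2 in 0. Pax5 and Blk were sums of 2 rows in the untreated tumors and stood on 1 row in the others, so their counts join unlike tables. All 3 tumors with Pax5 above 0 and 3 of the 4 with Blk above 0 were untreated. The highest of these tumor values was 0.706 FPKM, of Cd79b in DMSO replicate 2. For the 7 genes with a value in some tumor, the lowest Normal library stood between 44.7-fold (Cd22) and 233-fold (Cd79a) above the highest of the 9 tumors.

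The comparison of C646 with DMSO asks whether p300 inhibition changed these genes in tumors, and it took no part in choosing them. Across all genes, limma called 0 of 12083 genes lower (0%) and 0 higher (0%), with 384 genes at an unadjusted p under 0.05 and a smallest adjusted p of 0.990, while 12 genes were called lower without DMSO replicate 2. None of the 9 genes reached 1 FPKM in 3 of these libraries, so none was tested in that fit, and each was compared with the exact two-sided permutation test, whose smallest p for 3 against 3 is 0.1. Ms4a1, Cr2 and Pax5 were listed at 0 in all 6 libraries and could not be compared. A fall of these 3 genes from DMSO to C646 could not be seen, and no rise above 0 was listed in C646.

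Cd22 had 0.392, 0.406 and 0.192 FPKM in the DMSO replicates and 0.358, 0.277 and 0.421 FPKM in the C646 replicates. The groups overlapped, and the difference of C646 from DMSO was 0.13 on the log2(FPKM + 2^-5) scale (exact permutation p = 0.8), turning to -0.18 without DMSO replicate 3. With the filter lowered to 0.1 FPKM, limma gave a 95% interval of -1.13 to 1.39 for this difference (adjusted p = 0.994). Of the 3 genes that passed the lower filter Cd22 had the narrowest interval, which still admits changes of over 1 log2 unit in both directions.

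Cd79b had 0.570, 0.706 and 0.149 FPKM in the DMSO replicates and 0.198, 0 and 0.414 FPKM in the C646 replicates, a difference of -1.55 (exact permutation p = 0.3, 95% interval -4.21 to 1.11, adjusted p = 0.981). Cd79a was listed at 0 in DMSO replicate 1 and had 0.138 and 0.355 FPKM in replicates 2 and 3, and of the C646 replicates only replicate 2 was above 0, at 0.122 FPKM. The difference was -1.26 (exact permutation p = 0.4, 95% interval -4.32 to 1.80, adjusted p = 0.981). Both subunits were lower on average in C646 with overlapping groups, and neither difference passed the test. With a pseudocount of 1 the differences were -0.29 for Cd79b and -0.15 for Cd79a.

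Fcer2a was above 0 in DMSO replicate 1, at 0.479 FPKM, and in C646 replicate 1, at 0.197 FPKM, and gave a difference of -0.39 (exact permutation p = 1), which turned to 0.96 without DMSO replicate 1. Blk at 0.0660 FPKM and Fcrla at 0.0932 FPKM were above 0 in DMSO replicate 3 only among the 6 libraries, with differences of -0.55 and -0.66 (exact permutation p = 1 for both). For these 3 genes the values rest on 1 library per group or fewer. Without a filter, the 95% intervals of limma were -3.55 to 2.78 for Fcer2a, -2.15 to 1.06 for Blk and -2.40 to 1.07 for Fcrla, with adjusted p of 0.984, 0.925 and 0.925.

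The 4 lists of other B cell genes gave a like count. Of their 55 genes 29 were tested in C646 against DMSO, 0 were called and the median difference was 0.05, beside -0.01 over all genes tested. The T cell genes summed to 8.06 to 26.7 FPKM in DMSO and 8.89 to 11.3 FPKM in C646, and the macrophage genes to 527 to 681 FPKM and 582 to 830 FPKM. White adipocyte genes summed to 11.7 to 71.5 FPKM in DMSO and 92.5 to 602 FPKM in C646, with a median difference of 4.32 over 6 tested genes, none of them called. Neither the B cell nor the adipocyte lists held a gene that passed the test.

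The 10 genes most like the B lymphocyte genes were found among 12431 other genes with a mean of at least 1 FPKM in Normal, by the root mean square distance over 12 libraries between log2 values centred within each experiment. Sh2d1a was the nearest at a distance of 0.265, with 7.24 to 9.36 FPKM in Normal and listed at 0 in all 9 tumors. Mup3 (0.279), Alb (0.284), Ccl19 (0.317) and Themis (0.370) were next and were also listed at 0 in all tumors. H2-Eb2 (0.375), Mir1950 (0.445), Serpina10 (0.487) and H2-M2 (0.514) were also among the 10. H2-M2 had 11.1 to 19.3 FPKM in Normal and at most 0.163 FPKM in the tumors. Of the 9 genes themselves, Cr2 lay nearest to their mean at 0.300 and Fcer2a farthest at 1.20.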

How the data were processed

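Poly-A RNA was sequenced from 12 mouse samples, in paired-end libraries that do not mark strand. The authors mapped reads to mm10 with TopHat2 2.1.1, computed FPKM with Cufflinks 2.2.1 and deposited, for each sample, a table that pairs gene names with FPKM. The gene annotation is not given in the sources used here. FPKM is divided by gene length and library size, and the depth behind a value is unknown, so no counting interval is given. Groups and replicate numbers came from the labels.

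Of 26220 rows in the Normal and Tumor files 1837 had no name and were left out, and of 24304 rows in the DMSO and C646 files 0 were left out. FPKM was summed over the 544 and 473 repeated names. Each experiment was fitted alone with limma 3.58.1 in R 4.3.3 (lmFit, eBayes with a variance trend) on log2(FPKM + 2^-5). A gene was tested if 3 or more of the 6 samples reached 1 FPKM, and p was adjusted by Benjamini-Hochberg over the genes tested, with calls under 0.05. This scale understates the fold changes of low genes. Members under the filter were compared with the exact two-sided permutation test in Python 3.11.15. Before use, the limma step was tested on simulated data with known changes. Tumor and treated replicates were single mice, Normal replicates were pools.

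The 9 genes, the 12 gene lists and their tests were chosen with earlier results of these data known. Genes were named by a rule: all 9 genes, up to 4 per list by level and size of change, list members called against their list, and the 10 nearest profiles. Some genes that the rule names are not reported here. Alternatives were pseudocounts of 1 and 2^-2, other filters, median-ratio scaling, quantile normalization, a replicate block, leaving out each sample and taking the largest row of a repeated name. Gene positions are those of GENCODE vM21 (GRCm38, named mm10 by UCSC).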

Additional observations from a re-analysis of the deposited data

How the results depend on the processing

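In Tumor against Normal, 3758 genes were called higher and 4128 lower, and leaving out each sample in turn gave 3030 to 3373 higher and 2570 to 4172 lower. Without Normal replicate 2 the lower count was 2686 and without Normal replicate 3 it was 2570. In the 4 B cell lists 47 genes were lower, and 23 to 47 when each sample was left out. Without Normal replicate 1, 2 or 3 the count was 23, 24 and 23, since only 31 of the 54 genes then passed the filter. In an alternative chosen after seeing the data, which kept the genes of the full filter, 46 to 47 of the list genes and 3467 to 4175 of all genes were lower. For C646 against DMSO the lower count was 0 to 12 when each sample was left out, with 12 without DMSO replicate 2.

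The median difference of the 9 genes between Tumor and Normal was -4.11 with a pseudocount of 1, -5.34 with a pseudocount of 2^-2 and between -8.09 and -7.32 when each sample was left out, with -8.09 without Tumor replicate 3. For C646 against DMSO, leaving out each sample took Fcer2a from -1.34 to 0.96, being 0.96 without DMSO replicate 1 and 0.09 without C646 replicate 2 or 3, and Cd22 from -0.18 to 0.30, being -0.18 without DMSO replicate 3. When each sample was left out, Cd79a ran from -2.27 to -0.45 and Cd79b from -2.35 to -0.43, and with pseudocounts of 1 and 2^-2 Cd79a was -0.15 and -0.44 and Cd79b -0.29 and -0.69. No exact test passed 0.05, which this design cannot reach.

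Correlations of deviations between samples of the same replicate number ran from -0.10 to 0.01 for Tumor and Normal, against -0.06 to 0.09 for different numbers. For C646 and DMSO they ran from 0.07 to 0.17 (mean 0.12), against -0.23 to 0.14 (mean -0.06) for different numbers. The samples were treated as not paired, and for C646 and DMSO these few values do not settle whether the numbers pair them. With the replicate block 3827 genes were lower, 3439 were higher and 47 of the B cell list genes were lower in Tumor, and 0 genes were called in C646 against DMSO. Depth limits every value of the 9 genes in tumors, which lay under 1 FPKM.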
